A study of Arabidopsis thaliana with 6 samples.

Results

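The morning-phased genes of the Arabidopsis circadian clock were followed through RNA sequencing of whole Arabidopsis thaliana seedlings grown with or without doxycycline. They were chosen by identifier, 10 genes of the 33532 in the deposited table: the MYB-like factors LHY (AT1G01060), CCA1 (AT2G46830), RVE1 (AT5G17300), RVE2 (AT5G37260), RVE4 (AT5G02840), RVE7 (AT1G18330) and RVE8 (AT3G09600), the coactivators LNK1 (AT5G64170) and LNK2 (AT3G54500), and the Dof-type factor CDF2 (AT5G39660). Levels are in FPKM, fragments per kilobase of transcript scaled to the library total. All 10 were kept by a filter on low values (mean FPKM of 1 or more), as were 19035 genes in all. All libraries came from wild-type Col-0, the standard laboratory accession, raised on solid Murashige and Skoog medium (1/2 MS) for 10 days. The control group (3 libraries) had no addition, and the doxycycline group (3 libraries) had 5 µg/mL doxycycline, a tetracycline that stops the bacterial-type ribosomes of mitochondria and plastids. The series title names the question as the response to impaired mitochondrial translation.

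The plant clock is a loop of genes that peak in turn through the day. LHY and CCA1 peak around dawn and repress genes of the evening by binding a short motif, the evening element, in their promoters. The PRR proteins, made from morning to dusk, repress LHY and CCA1, and the evening complex of ELF3, ELF4 and LUX represses PRR genes at night. RVE8 and RVE4 bind the same element as activators, with LNK1 and LNK2 as partners, while RVE1, RVE2 and RVE7 carry clock timing to outputs. In a whole-seedling sample, the level of such a transcript depends on the hour of harvest. The labels state neither the light regime nor that hour.

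The sequences below show a short motif, the G-box, found in the promoter windows of 8 members. The window searched ran from 250 bases before to 50 bases after each annotated gene start in the RefSeq annotation of assembly TAIR10.1, matched by locus tag since the deposited table holds no coordinates. The G-box, spelled CACGTG, is a site for light-signalling factors of the bHLH and bZIP families and reads the same on both strands. It occurred in 8 of the 10 windows, against 7.79% of 26669 windows of nuclear protein-coding genes in the table. Each line gives the G-box in capitals with 10 bases on either side, 5′ to 3′ on the gene's strand.
LHY: acaatatcacCACGTGtcgatctgcg
CCA1: gtgtatcagaCACGTGtcgacaaact
RVE1: gaaagagcgaCACGTGgcaaagatgg
RVE2: agaaatcctcCACGTGtcattagcat
CDF2: taagaatcctCACGTGtgatgacgtg
LNK1: atttagttgcCACGTGttgatatcat
RVE8: tacaagtctaCACGTGcttcaagctt
LNK2: actcgtttggCACGTGaccatttcat

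On TAIR10.1 these stretches lie at chr1:37936-37961 (minus strand) for LHY, chr2:19245388-19245413 (plus) for CCA1, chr5:5693088-5693113 (minus) for RVE1, chr5:14753236-14753261 (minus) for RVE2 and chr5:15878611-15878636 (plus) for CDF2. Those of LNK1, RVE8 and LNK2 lie at chr5:25676810-25676835 (minus), chr3:2946240-2946265 (plus) and chr3:20179031-20179056 (minus). Counted from the gene start, the G-box began at base -80 in LHY, -193 in CCA1, -111 in RVE1, -163 in RVE2 and -77 in CDF2, all upstream. In LNK1 it began at -2 and crossed the start, and in RVE8 and LNK2 it lay inside the annotated gene, from bases 12 and 25. RVE4 and RVE7 had no G-box in this window.

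The 250 bases upstream of LHY, CCA1 and RVE7 are shown in full, as the paired dawn genes and a member of another pattern. Capitals mark matches to any of the 6 motifs searched.
LHY: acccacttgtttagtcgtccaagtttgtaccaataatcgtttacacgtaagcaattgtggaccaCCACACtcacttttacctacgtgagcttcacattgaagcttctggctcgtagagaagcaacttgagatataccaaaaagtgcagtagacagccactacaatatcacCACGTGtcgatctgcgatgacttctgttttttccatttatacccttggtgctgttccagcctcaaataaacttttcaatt
CCA1: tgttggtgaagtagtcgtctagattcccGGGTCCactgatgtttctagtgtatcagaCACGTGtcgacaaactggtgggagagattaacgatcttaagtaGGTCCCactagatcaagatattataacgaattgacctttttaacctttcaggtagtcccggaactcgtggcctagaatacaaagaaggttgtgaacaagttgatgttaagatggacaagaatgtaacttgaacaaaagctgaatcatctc
RVE7: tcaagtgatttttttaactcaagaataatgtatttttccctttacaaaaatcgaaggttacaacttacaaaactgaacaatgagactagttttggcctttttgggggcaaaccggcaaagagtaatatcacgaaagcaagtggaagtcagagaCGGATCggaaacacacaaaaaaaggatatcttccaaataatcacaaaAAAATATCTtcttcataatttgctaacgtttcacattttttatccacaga

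These runs lie at chr1:37872-38121 (minus), chr2:19245341-19245590 (plus) and chr1:6308244-6308493 (minus). The other motifs, searched on both strands, were the evening element AAAATATCT, the CCA1-binding site AAAAATCT, the TCP site GGNCCC, the LUX-binding site GATNCG and the morning element CCACAC. The evening element occurred in RVE7 alone among the 10 members, against 2.86% of all windows, and in 9 of 14 day and evening clock genes. CCA1 held 2 TCP sites (8.73% of all windows had at least 1), which is the class of site bound by its repressor CHE. The CCA1-binding site was found in RVE2 (7.95% of all windows) and the morning element in LHY and RVE4 (7.77%). The LUX-binding site was found in RVE4, RVE7, RVE8, LNK2 and CDF2, 5 of 10, against 20.5% of all windows. No pair of matches overlapped in these windows, and a match describes letters only, not binding.

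**Figure D1:**
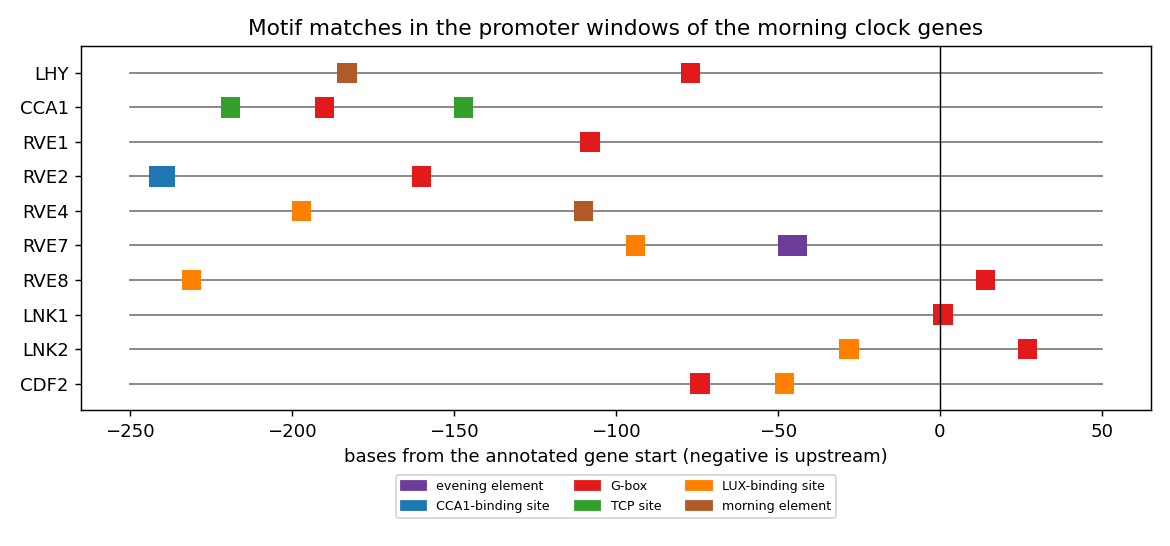
Motif matches in the promoter windows of the 10 members, by distance in bases from the annotated gene start, with 1 colour per motif. The G-box (red) appears in 8 rows, in 5 of them wholly upstream of the start, and is missing from RVE4 and RVE7.

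The libraries held an estimated 18550000 to 21900000 fragments, read from the FPKM that a single fragment is worth. Over all genes tested, control 1 correlated at 0.961 to 0.964 (Pearson r of log2 values across genes, which are not independent replicates) with the doxycycline libraries and at 0.831 and 0.867 with controls 2 and 3. Controls 2 and 3 correlated at 0.895 with each other. The 4 leaf markers fixed for the tissue check summed to 26440, 10370 and 19790 FPKM in controls 1 to 3 and 21430 to 26270 FPKM with doxycycline. The 5 root markers summed to 547, 1594 and 1575 FPKM in the controls and 717 to 798 FPKM with doxycycline, nearly all from PYK10, with NRT2.1 at 0 to 0.25 FPKM. The 6 flower and seed markers summed to 18.6, 4.58 and 13.4 FPKM in controls 1 to 3 and 2.76 to 8.10 FPKM with doxycycline. The floral genes AP1, AP3, PI and AG, all low, were higher in controls 2 and 3 than in the other libraries. PI had 0.563, 2.24 and 4.01 FPKM across the controls and 0.304 to 0.701 FPKM with doxycycline. The seed gene CRU3 ran the other way, at 16.8, 0 and 0.503 FPKM across the controls, and SESA1 followed neither order. The root sums, set by PYK10, were higher in the same controls as the morning genes described next. COBL9 and NRT2.1 had that order too, at no more than 2.25 FPKM. EXPA7 (0.696, 0.670 and 6.79 FPKM in controls 1 to 3) and PRP3 (2.23, 0.862 and 14.9 FPKM) were high in control 3 alone. The part of tissue content in the results was not tested. Nothing in the labels beyond the words biological replicates says that cultures were separate, so p-values measure the spread between these libraries.

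Most morning transcripts were high in controls 2 and 3 and low in control 1 and in all doxycycline libraries. In 8 of the 10 (LHY, CCA1, RVE1, RVE2, RVE8, LNK1, LNK2 and CDF2) both of those controls stood above the other 4 libraries, an order found in 47.8% of all genes tested. The same 8 were at least 2-fold higher in control 2 than in control 1, on the log2(FPKM + 1) scale, against 26.6% of all genes, and at least 2-fold higher in control 3 than in control 1, against 18.3%. RVE4 was nearly level in all libraries and RVE7 was lowest in control 3. The 8 genes were those with a G-box in the window above. The share of G-box genes with this order was not counted over all genes, and a link between motif and level was not tested. In whole seedlings, fewer cells of a type and less RNA per cell cannot be told apart.

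**Figure D2:**
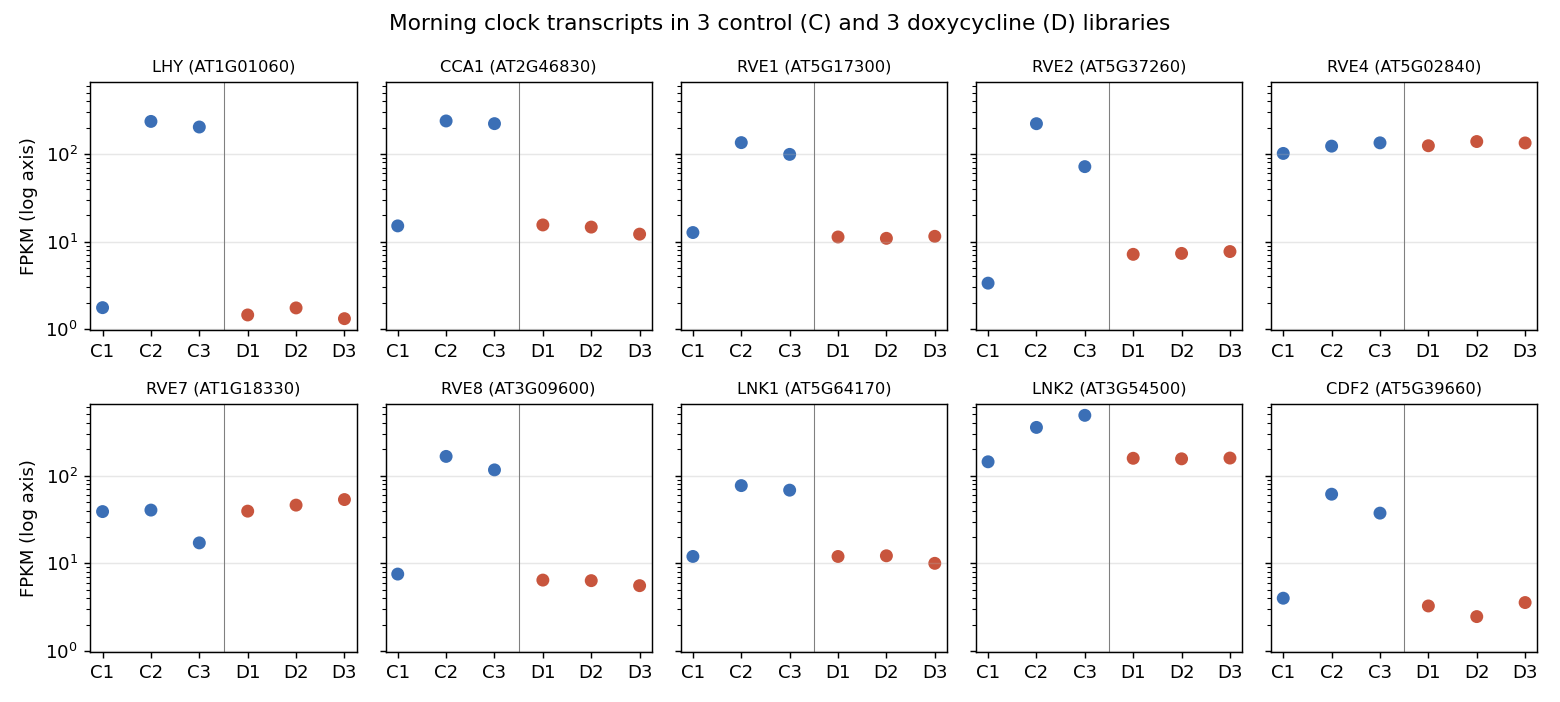
FPKM of each member on a log axis in 3 control (C1 to C3, blue) and 3 doxycycline (D1 to D3, red) libraries, 1 point per library. In 8 panels C2 and C3 stand above the other 4 points, with C1 near D1 to D3 except for RVE2, where C1 is lower (3.36 FPKM), while RVE4 is nearly flat and RVE7 is lowest in C3.

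LHY and CCA1, the partly redundant dawn repressors at the centre of the loop, were nearly equal to each other in controls 2 and 3. LHY had 1.76, 235 and 203 FPKM in control libraries 1, 2 and 3 and 1.46, 1.75 and 1.32 FPKM in doxycycline libraries 1 to 3. Controls 2 and 3 were 133 and 115 times control 1, and control 1 lay just above the highest doxycycline library. On the shortest annotated model of 2132 bases, the low libraries held an estimated 59 to 78 fragments of LHY and the high ones 9292 and 9469, so the gap was far larger than counting error.

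CCA1 had 15.1, 238 and 222 FPKM across the controls and 15.5, 14.6 and 12.2 FPKM with doxycycline. Control 1 thus lay inside the doxycycline range, and controls 2 and 3 were 15.7 and 14.7 times control 1. The ratio of LHY to CCA1 was 0.988 and 0.915 in controls 2 and 3, but 0.117 in control 1 and 0.0940, 0.120 and 0.109 in the doxycycline libraries. Where both transcripts were low, LHY was the lower of the pair by about an order of magnitude.

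Among the RVE genes that act as activators at the evening element, RVE8 and RVE4 are close relatives with different ranges over these libraries. RVE8 had 7.54, 166 and 116 FPKM across the controls and 6.44, 6.35 and 5.56 FPKM with doxycycline. All doxycycline libraries lay below control 1, itself far below the other controls. RVE4 had 101, 123 and 134 FPKM across the controls and 124, 139 and 133 FPKM with doxycycline, and the groups overlapped. The ratio of RVE8 to RVE4 was 1.35 and 0.870 in controls 2 and 3, 0.0744 in control 1 and 0.0417 to 0.0519 with doxycycline.

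The output-linked MYB-like genes RVE1, RVE2 and RVE7 did not share 1 pattern. RVE1, which promotes auxin production in the morning, had 12.7, 135 and 98.8 FPKM across the controls and 11.3, 10.9 and 11.5 FPKM with doxycycline. Its doxycycline libraries were tightly grouped just below control 1. RVE2, also called CIR1, had 3.36, 221 and 71.6 FPKM across the controls and 7.15, 7.33 and 7.70 FPKM with doxycycline. It was the member with the widest gap between controls 2 and 3 (control 3 minus control 2, -1.61 on the log2(FPKM + 1) scale), and every doxycycline library was above control 1. RVE7, also called EPR1, had 38.9, 40.5 and 17.1 FPKM across the controls and 39.4, 46.1 and 53.4 FPKM with doxycycline. Here control 3 was low and controls 1 and 2 lay beside the lowest doxycycline library.

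LNK1 and LNK2, the coactivators that work with RVE8 and RVE4, had the same high and low libraries with different ranges. LNK1 had 11.98, 77.0 and 68.4 FPKM across the controls and 11.97, 12.2 and 10.0 FPKM with doxycycline. Control 1 was inside the doxycycline range. LNK2 was the most abundant member in every library, at 144, 355 and 488 FPKM in the controls and 158, 156 and 159 FPKM with doxycycline. It was also the 1 member among the 8 whose highest value was in control 3. LNK1 overlaps AT5G64160 on the other strand, which stood at 15.1 to 22.0 FPKM in all libraries. Reads from the stretch that this pair shares cannot be told apart if strand was not kept. The length of that stretch was not measured. LNK2 overlaps AT3G54490, at most 0.289 FPKM, and AT3G08405, and RVE1 overlaps AT5G17305, both not analysed here.

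CDF2, a repressor of the flowering gene CO, had 3.999, 61.5 and 37.4 FPKM across the controls and 3.26, 2.47 and 3.57 FPKM with doxycycline. All doxycycline libraries lay below control 1, and controls 2 and 3 were 15.4 and 9.35 times control 1. The doxycycline means ran from LNK2 through RVE4, RVE7, CCA1, LNK1, RVE1, RVE2, RVE8 and CDF2 down to LHY. In that order CCA1 overlapped LNK1 and LNK1 overlapped RVE1, while each other neighbouring pair was separate in all libraries. In the controls every pair of neighbours in the order of means overlapped, and the lowest member was LHY in control 1 but RVE7 in controls 2 and 3. Summed over the 10 members, FPKM was 341, 1652 and 1456 in controls 1 to 3 and 378, 396 and 398 with doxycycline.

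Against the controls as a group, the doxycycline libraries were lower in mean for 8 members, but none passed the test. With limma on log2(FPKM + 1), 0 of the 10 had a Benjamini-Hochberg adjusted p under 0.05, as did 0% of all genes tested, and limma with robust variances called 0 as well. At an unadjusted p under 0.05, 6 of the 10 were lower, against 18.8% of all genes, and 0 were higher, against 6.83%. The largest difference was in LHY, -4.35 on the log2 scale (SE 1.59, limma adjusted p = 0.166), followed by RVE8 with -2.96 (SE 1.03, adjusted p = 0.158) and CCA1 with -2.66 (SE 0.977, adjusted p = 0.166). In every member the standard deviation on the log2 scale was larger among the controls than among the doxycycline libraries. CDF2 gave -2.49 (SE 0.862, adjusted p = 0.157), RVE2 -2.30 (SE 1.28, adjusted p = 0.275) and RVE1 -2.22 (SE 0.795, adjusted p = 0.161). LNK1 gave -1.74 (SE 0.650) and LNK2 -0.89 (SE 0.431), with limma adjusted p-values of 0.170 and 0.229. RVE4 and RVE7 gave 0.15 (SE 0.185) and 0.60 (SE 0.342), with limma adjusted p-values of 0.587 and 0.286. After median-of-ratios scaling, which moves the median of all genes from -0.29 to 0.00, these last values became 0.48 and 0.92 and both genes lay above every control. The 8 negative differences kept their sign under that scaling and under quantile normalization, with medians over the 10 members of -1.94 and -2.11, against -2.26 as deposited.

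Every doxycycline library was below every control in 4 of the 10, LHY, RVE1, RVE8 and CDF2, against 25.7% of all genes tested, and above every control in 0, against 9.59%. That order rested on narrow gaps to control 1: for LHY the closest values were 1.76 FPKM in control 1 and 1.75 FPKM in doxycycline library 2, and LHY lost the order under median-of-ratios scaling. The median standard deviation of the 10 on the log2 scale was 1.86 among controls and 0.112 among doxycycline libraries, where all genes gave 0.459 and 0.131. The members' controls were further apart, in the median, than those of all genes.

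**Figure D3:**
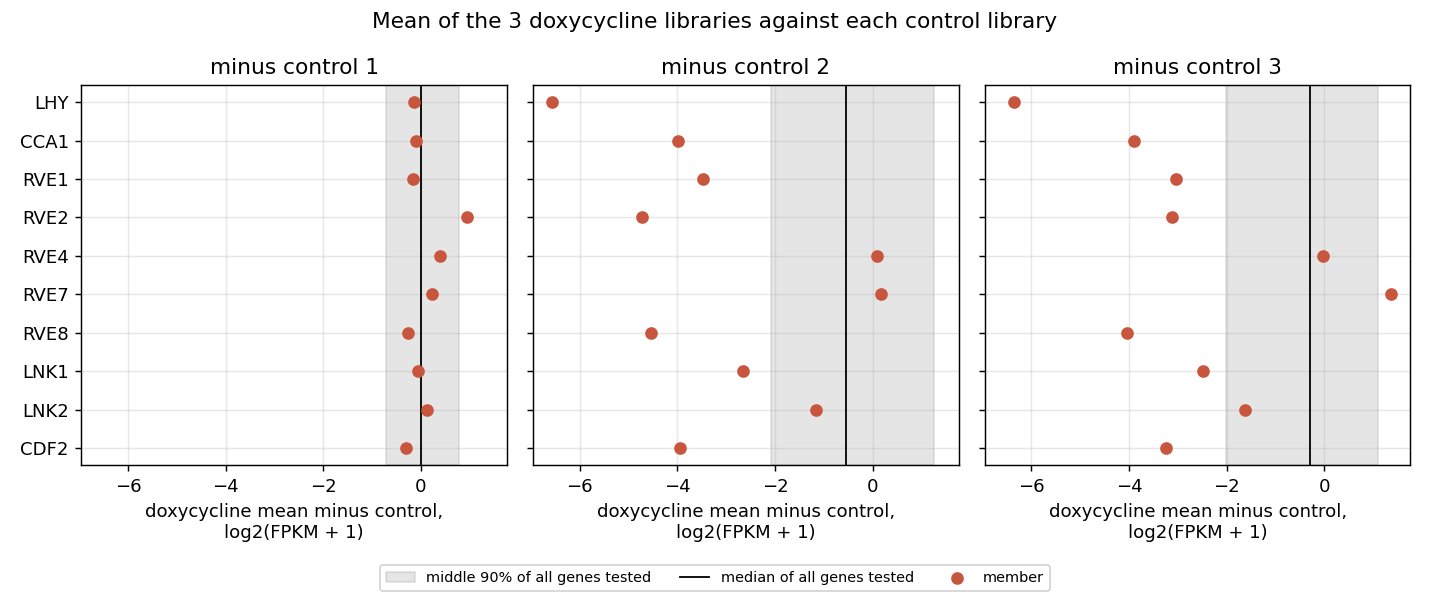
Mean of the 3 doxycycline libraries minus each control library for each member (red points) on the log2(FPKM + 1) scale, with the middle 90% of all 19035 genes tested (grey) and their median (line). Members lie between -0.30 and 0.95 against control 1, while against controls 2 and 3 LHY reaches -6.56 and -6.35.

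Which control served as reference decided the size of the difference. Relative to control 1 the members had a median of -0.09 (all genes -0.00), relative to control 2 of -3.71 (all genes -0.54) and relative to control 3 of -3.07 (all genes -0.30). Against control 1 the doxycycline mean was at least 2-fold lower in 0 of the 10 (1.93% of all genes). Against control 2 it was in 8 of the 10 (27.9%), and against control 3 also in 8 (18.5%).

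With control 1 left out, limma called 8 of the 10 lower with doxycycline, against 35.6% of all genes, and 0 higher, against 9.77%. Without it LHY gave -6.45 (SE 0.161, limma adjusted p = 8.56e-05) and LNK2, the smallest of the 8, gave -1.40 (SE 0.185, limma adjusted p = 0.00306). That fit keeps only controls 2 and 3, in which these 8 genes were already seen to be high. Its calls and p-values restate that order and are not separate support. With control 1 as the only control, 0 of the 10 were called lower (4.75% of all genes) and 1 was called higher (6.78%). That gene was RVE2, with 0.95 (SE 0.146, limma adjusted p = 0.0220), in a fit that takes the spread from the doxycycline libraries alone. LHY and CCA1 gave -0.14 (SE 0.180) and -0.10 (SE 0.170) against control 1 alone, with limma adjusted p-values of 0.621 and 0.722.

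The 14 other clock genes of the day and evening showed a different order from the morning genes in part. Controls 2 and 3 both lay below the other 4 libraries in 6 of them, PRR7, PRR5, PRR3, LUX, FKF1 and COR27, against 11.9% of all genes tested, and both above in PRR9 alone. The 2 controls differed here. On the log2(FPKM + 1) scale control 3 was at least 2-fold below control 1 in 11 of the 14 (955 of 19035 genes tested). Control 2 was so in 6 (1233 of 19035). PRR7 (AT5G02810), a repressor of LHY and CCA1, had 126, 25.9 and 26.7 FPKM across the controls and 99.5, 112 and 107 FPKM with doxycycline. The ratio of CCA1 to PRR7 was accordingly 9.19 and 8.31 in controls 2 and 3, against 0.120 in control 1 and 0.114 to 0.156 with doxycycline. PRR9 (AT2G46790), the earliest of the PRR genes, had 2.76, 34.5 and 11.3 FPKM across the controls and 2.63, 4.56 and 3.35 FPKM with doxycycline, like the morning genes. PRR3, PRR5, PRR7, PRR9, FKF1 and COR27 were chosen for naming after their values were seen. Of 4 genes in this list with a G-box, PRR9 had both controls above, PRR7 and LUX both below, and BOA neither.

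None of the 14 passed with limma (0 of 14, with 1 higher and 0 lower at an unadjusted p under 0.05, against 6.83% and 18.8% of all genes), and their median difference was 0.37, with -0.54, 0.21 and 1.47 against controls 1 to 3. LUX (AT3G46640), of the evening complex, was above every control, at 17.5, 11.2 and 3.85 FPKM in the controls and 23.0, 24.0 and 27.0 FPKM with doxycycline (log2 difference 1.32, SE 0.459, limma adjusted p = 0.158). Its relative BOA (AT5G59570) was below every control, at 3.04, 5.87 and 2.77 FPKM against 0.96, 1.87 and 2.48 FPKM (-0.81, SE 0.351, limma adjusted p = 0.201). Without control 1, limma called 6 of the 14 higher and 1 lower, against 9.77% and 35.6% of all genes. Against control 1 the direction differed. Control 1 lay above all doxycycline libraries in 9 of the 14 (7030 of 19035 genes tested), inside their range in 3 and below it in 2. PRR5 gave 1.99 without control 1 but -0.94 against control 1 alone. TOC1 (AT5G61380), the dusk repressor of CCA1, had 19.9, 20.1 and 9.24 FPKM across the controls and 12.3 to 14.6 FPKM with doxycycline, and the groups overlapped.

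**Figure D4:**
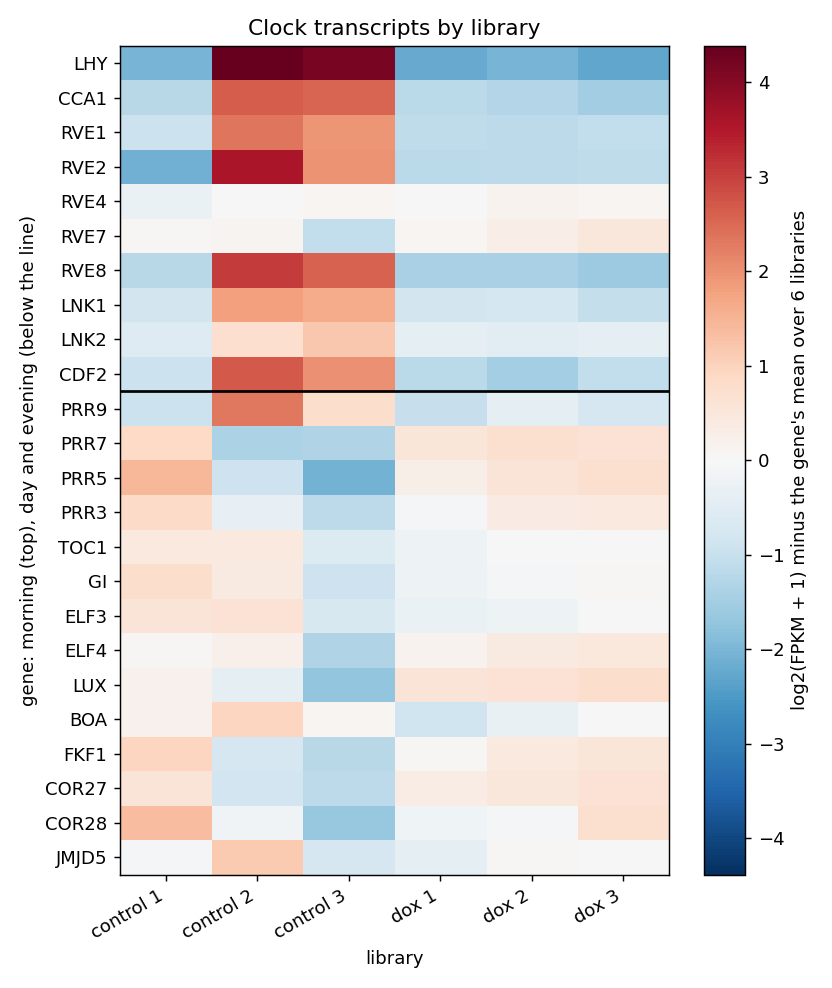
Level of each morning (above the line) and day or evening clock gene in each library, as log2(FPKM + 1) minus the gene's mean over the 6 libraries, with red high and blue low. Controls 2 and 3 are red for 8 of the 10 morning genes and blue for 6 of the 14 day and evening genes in which both lie below the other 4 libraries, such as PRR7.

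Among 12 other clock-associated genes, 7 had controls 2 and 3 above the other 4 libraries and 1, the CCA1 repressor gene CHE (AT5G08330), had both below, against 47.8% and 11.9% of all genes tested, so the 7 are near the share of all genes. CHE had 201, 27.7 and 36.0 FPKM across the controls and 164, 148 and 172 FPKM with doxycycline. The relatives of the members differed among themselves. LNK3 (AT3G12320) had 11.4, 137 and 132 FPKM across the controls and 14.1, 11.9 and 14.3 FPKM with doxycycline, much like LNK1. RVE3 (AT1G01520) had 0.24, 36.0 and 15.0 FPKM across the controls and 0.778 to 1.098 FPKM with doxycycline. RVE5 (AT4G01280) stood at 11.4, 24.2 and 22.6 FPKM against 9.76 to 10.4 FPKM, and RVE6 (AT5G52660), the third of the RVE8 group, at 7.10, 9.98 and 9.91 FPKM against 5.96 to 8.22 FPKM.

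By limma, 0 of these 12 passed the adjusted threshold (median difference -0.41, all genes -0.29), and 4 were lower at an unadjusted p under 0.05, against 18.8% of all genes. These were TIC, TPL, RVE5 and LNK3. The clock regulator TIC (AT3G22380) was below every control, control 1 included, at 39.9, 72.6 and 52.6 FPKM in the controls and 18.0, 19.1 and 24.0 FPKM with doxycycline (log2 difference -1.36, SE 0.254, limma adjusted p = 0.121). Against control 1 alone, which is 1 library, the difference of TIC was -0.95. This was not particular to TIC, since the output gene CAT3, described below, gave -1.50 against control 1 alone. TPL (AT1G15750), the corepressor that PRR proteins recruit, stood at 22.8, 62.8 and 51.4 FPKM against 17.0 to 17.6 FPKM (-1.24, SE 0.360, limma adjusted p = 0.138), below every control. RVE5, also below every control, gave -0.82 (SE 0.294) and LNK3, whose groups overlapped, -2.08 (SE 0.882), with limma adjusted p-values of 0.160 and 0.195. LKP2 (AT2G18915), an F-box protein gene of the ZTL family, was the 1 gene above every control, at 8.84 to 10.6 against 11.2 to 13.6 FPKM.

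Of 13 clock output genes, 11 passed the filter, 0 were called by limma and 1 was lower at an unadjusted p under 0.05, against 18.8% of all genes. That gene was CAT3 (AT1G20620), an evening-phased catalase, at 1401, 885 and 684 FPKM in the controls and 427, 471 and 606 FPKM with doxycycline (-0.93, SE 0.340, limma adjusted p = 0.165). The light-harvesting gene LHCB1.1 (AT1G29920) was above every control, at 7906, 1433 and 2989 FPKM in the controls and 9085 to 9260 FPKM with doxycycline, with near-identical copies that leave its value uncertain. Among the relatives of CDF2 in this list, CDF3 (AT3G47500) had 12.5, 56.1 and 54.8 FPKM across the controls and 15.7, 20.7 and 17.4 FPKM with doxycycline. Controls 2 and 3 also stood above the other libraries in CDF1 (10.5, 26.6 and 47.2 FPKM across the controls) and CDF4 (0.357, 7.08 and 3.86 FPKM). In CDF5 control 2 lay inside the doxycycline range, at 0.782, 1.40 and 3.97 FPKM across the controls against 1.14 to 1.58 FPKM. CO and FT were below the filter, at up to 3.17 and 1.00 FPKM. Of 7 light input genes 0 were called by limma and 1 was lower at an unadjusted p under 0.05, the red-light receptor gene PHYB (AT2G18790). It had 10.1, 30.7 and 38.2 FPKM across the controls and 7.76, 8.77 and 8.70 FPKM with doxycycline (-1.35, SE 0.454, limma adjusted p = 0.153). The median difference was -0.27 for the output genes and -0.20 for the light input genes, where all genes gave -0.29.

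The members' mean profile, each member centred on its own mean log2(FPKM + 1), was -1.01, 2.14 and 1.70 in controls 1 to 3 and -0.95, -0.93 and -0.95 with doxycycline. Pearson r over the 6 libraries between a member and the mean of the others was 0.954 to 0.998 for the 8 genes high in controls 2 and 3. It was 0.151 for RVE4 and -0.623 for RVE7. That mean is made mostly of these 8 genes, so the r values restate the order of libraries given above. The points share the same 6 libraries, of which controls 2 and 3 carry the relation. The 5 other genes nearest to that mean profile, among 1602 with a standard deviation of at least 1 on the log2 scale, had r of 0.999 or more. They were AT5G19890, ABCC4 (AT2G47800), ANK (AT5G54610), NCS1 (AT5G03555) and AT4G06744. NCS1, for a nucleobase transporter, had 5.81, 65.7 and 49.6 FPKM across the controls and 5.80, 6.47 and 5.41 FPKM with doxycycline, and the multidrug resistance-associated gene ABCC4 had 1.26, 18.2 and 13.2 against 1.18 to 1.44 FPKM. With 6 libraries and 1602 candidates, such likeness describes these libraries only.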

How the data were processed

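The authors deposited 1 table of FPKM values with a column for each of 6 libraries, made from TRIzol RNA of whole seedlings with a VAHTS Universal V6 kit, per the labels' protocols. Per the submitters' processing notes, TopHat2 2.1.0, Cufflinks 2.2.1 and the TAIR10 genome were used, with no role given. The unit was read from the values, and strand handling is not given in the sources used here. FPKM is relative to the library total, so a shift in abundant genes moves all others.

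Values were analysed as log2(FPKM + 1) with limma 3.58.1 in R 4.3.3 (variance trend on abundance, two-sided, no covariate). The 19035 genes whose mean reached 1 FPKM were kept. Their p-values were adjusted over all of them by Benjamini-Hochberg, with 0.05 as threshold. The fit was also run on simulated data that gave every library the spread of the doxycycline group. The controls here were more spread, so that run does not describe the test at their spread. On the log2(FPKM + 1) scale the fold of a low gene is understated. Depth came from low values of genes with 1 transcript model of at least 600 bases, of which 50.7% to 61.9% were whole fragments within 0.08, so depth is approximate and no count test was run.

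Promoter windows and names came from the RefSeq annotation of TAIR10.1, which holds 32789 of the identifiers. Python 3.11.15 and pandas 2.3.3 were used. All 10 members were named. Genes of the other clock lists were named where their unadjusted p was under 0.05 or the groups did not overlap, with the rest given as counts. Exceptions, named after their values were seen, were TOC1, PRR3, PRR5, PRR7, PRR9, FKF1, COR27, CHE, RVE3 and RVE6. Further exceptions of this kind were CDF1, CDF3, CDF4, CDF5, CO, FT, HY5, GRP7, PIF4, PIF5 and CRY2. The members and lists were chosen with earlier results of these data known.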

Additional observations from a re-analysis of the deposited data

How the results depend on the processing

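Smaller pseudocounts (0.1 and 0.01), quantile normalization, robust variances, dropping the filter and raising it to 5 FPKM left 0 genes and 0 members past the adjusted threshold, and the members' median between -2.32 and -2.11. Median-of-ratios scaling gave a median of -1.94, with 3 members below every control (RVE1, RVE8 and CDF2) and 2 above (RVE4 and RVE7). With control 1 as the only control, 2194 genes, 1 member and 3 day and evening genes passed, the members' median was -0.09, 4 members lay above that control (RVE2, RVE4, RVE7 and LNK2), and RVE2 (0.95) and LNK2 (0.13) changed sign. Leaving out each library in turn gave 0 to 8637 genes, 0 to 8 members and 0 to 7 day and evening genes past the threshold, with 4 to 8 members below and 0 to 1 above every control. The upper ends for genes and for members called or below came without control 1. Without control 3, 2 genes passed. The members' median was -3.42 without control 1, -1.44 without control 2 and -1.86 without control 3, against -2.26 with all. The median of the day and evening genes, 0.37, became -0.16 with the filter at 5 FPKM, where fewer genes are tested, -0.54 against control 1 alone and -0.24 without control 3, and was 0.94 without control 1, 0.81 with quantile normalization, 0.57 with median-of-ratios scaling and 0.72 and 0.76 with pseudocounts of 0.1 and 0.01. Leaving out a doxycycline library gave 0.19 to 0.54. The replicate block changed no call (0 genes and 0 members). Libraries that share a number did not deviate together (r of -0.002, -0.014 and -0.137). These values gave no sign of pairing, which 3 libraries per group cannot exclude. The causes of these shifts were not tested. Depth did not limit the members, whose lowest value, LHY in doxycycline library 3, stands for an estimated 59 fragments.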

Other observations

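Some further clock output and light-signalling genes, named after their values were seen, also differed between the controls. Controls 2 and 3 stood above the other 4 libraries in 3 of 7 light input genes and 4 of 11 output genes tested (47.8% of all genes). Both stood below in 0 and 3 of them (11.9% of all genes). Other genes of these lists were nearly level, such as CRY2 with 48.6, 56.2 and 47.2 FPKM across the controls. HY5 (AT5G11260), a bZIP factor of light signalling that binds G-box sites, had 7.92, 97.5 and 25.4 FPKM across the controls and 12.5, 11.6 and 11.4 FPKM with doxycycline. PIF4 (AT2G43010), a bHLH factor of the same sites, had 192, 19.2 and 56.6 FPKM across the controls and 96.0, 103 and 118 FPKM with doxycycline. PIF5 (AT3G59060) was nearer to level, at 135, 85.7 and 115 FPKM across the controls and 89.5 to 96.1 FPKM with doxycycline. A link between these factors and the members was not tested. The RNA-binding protein gene GRP7 (AT2G21660), a clock output that peaks late in the day, had 1426, 553 and 97.7 FPKM across the controls and 675, 803 and 1005 FPKM with doxycycline. In HY5, PIF4, PIF5 and GRP7 the groups overlapped.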
